A study of Mus musculus with 16 samples.

Results

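Carbonic anhydrases are enzymes that interconvert carbon dioxide and water with bicarbonate and protons, the reaction by which carbon dioxide carried in plasma is released in the lung. Car4 is anchored to the outer face of the cell membrane and is a known enzyme of the luminal surface of lung capillaries. Car14 spans the membrane with its catalytic domain outside the cell. Car2 is the fast enzyme of the cytosol. Car8 has lost the zinc-binding residues needed for catalysis and is known to bind an inositol trisphosphate receptor. These 4 genes, all found among the 28692 gene symbols of the table, were chosen by their measured levels in the vessel classes and days of these same data. Their levels by class and by day are therefore a description, and no test supports them. Their positions in mm10 are chromosome 11, 84957786 to 84966044, plus strand, for Car4. Car14 lies on chromosome 3, 95897768 to 95904691, minus strand. Car8 lies on chromosome 4, 8143362 to 8239041, minus strand, and Car2 on chromosome 3, 14886273 to 14900770, plus strand.

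The cells were endothelial cells of the lung, sorted by fluorescence from female C57BL/6N mice and read with a 10x Genomics 3′ kit (version 2) that counts transcripts by unique molecular identifiers (UMIs). The groups were wild-type mice (d0), mice carrying a primary tumour (d15), mice after resection of the tumour (d22) and mice carrying metastases (d36). Tumours were grown under the skin from Lewis lung carcinoma, a line of mouse lung tumour cells, and the labels give 4 libraries for each of the 4 days. The number of mice behind a day is not given in the sources used here.

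Endothelial cells numbered 2626, 1479, 3189 and 1579 at d0, d15, d22 and d36, 8873 in all, and their UMIs summed to 22835195, 6863507, 27598730 and 6692572. The median cell held 7643, 4142, 7667 and 3408 UMIs at those days. Cell names carried the day but no library, so each day was 1 pooled sample, no difference between days could be tested, and intervals cover counting error only. UMI values peaked at 4, a value that held 45.1% to 54.8% of the non-zero values of a day, against 11% to 14.5% for the value 1. Intervals were therefore taken on counts divided by 4, and a cell was called positive both at 1 UMI or more and at 4 UMIs or more. In all, 36 cell barcodes occurred at more than 1 day. The 6 pan-endothelial markers summed to between 9774 and 11336 CPM (UMIs of the genes for each 1000000 UMIs of the day) per day. The leukocyte list of 4 genes reached 1.17 to 14.8 CPM with up to 1 gene at 0, and the epithelial list of 7 genes 96.6 to 185 CPM with none at 0. The monocyte and neutrophil list of 5 genes reached 214 to 296 CPM with 1 or 2 genes at 0.

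Cells were clustered without any carbonic anhydrase gene, and clusters were named from marker lists that held none, so a member's level in a class does not rest on its own counts. Aerocyte-like cells are the wide capillary cells of the alveolus that carry Ednrb, and general capillary-like cells are those that carry Gpihbp1. They numbered 1409 and 5942, beside 361 venous-like, 507 arterial-like, 55 lymphatic-like and 51 proliferating cells. A further 498 cells low in the nuclear RNA Malat1 and 50 cells of an unnamed cluster led by Fabp4 stayed outside the named classes. General capillary-like clusters of 792, 716, 349 and 202 cells had no marker of that list among their leading genes. They were named from the level of the list as a whole, where clusters of other classes would have stayed unnamed. Median UMIs per cell differed between classes, at 10547 in aerocyte-like, 6213 in general capillary-like, 8713 in venous-like and 6885 in arterial-like cells. In what follows, measured genes are those that reach 50 CPM in one of the compared sums and 200 UMIs in both together. A measured gene met the size rule where one level was 1.5 or more times the other and the 95% interval did not hold 1.

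Car4 was concentrated in aerocyte-like cells. Its level there was 5363, 5869, 5930 and 4566 CPM at d0, d15, d22 and d36. In general capillary-like cells it was 443, 395, 372 and 420 CPM, so the classes did not overlap at any day. Over all days Car4 stood at 5605 CPM in aerocyte-like cells (95% interval 5531 to 5680), against 393 CPM in all other endothelial cells, a ratio of 14.3 (13.8 to 14.7) that lay above 1 at 4 of 4 days. By the size rule 13.8% of the 3798 genes measured were higher in aerocyte-like cells, and Car4 ranked 41 among them. Aerocyte-like cells made up 15.9% of endothelial cells and held 82.0% of the Car4 UMIs. At 4 UMIs or more, 93.8% of aerocyte-like cells were positive, against 30.4% of general capillary-like, 8.09% of arterial-like and 5.54% of venous-like cells. Against all other endothelial cells Car4 was lower in general capillary-like cells, with a ratio of 0.115 (0.111 to 0.119), where 8.5% of genes were lower, and in venous-like cells, with a ratio of 0.0356, where 10.8% were. Both comparison groups hold the aerocyte-like cells. General capillary-like cells had 405 CPM over all days, beside 368 in proliferating, 134 in arterial-like, 89.4 in lymphatic-like and 62.0 in venous-like cells. Outside the named classes, the 498 Malat1-poor cells had 1435 CPM. One of their clusters, 44 cells whose best match was the aerocyte list, had 7192 CPM, above both aerocyte-like clusters. Malat1-poor cells count among the other endothelial cells in the ratios given here. The median aerocyte-like cell held 65.5, 24, 76 and 11 Car4 UMIs at d0, d15, d22 and d36, days at which the class had median depths of 13012, 5231, 13522 and 3076 UMIs. Thinned to 2000 UMIs, the medians were 10, 11, 11 and 7.

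The 2 aerocyte-like clusters differed in Car4. The cluster led by Chst1, Rprml and Ednrb had 5466, 6414, 6057 and 5552 CPM at d0, d15, d22 and d36. The cluster led by Tbx2, Lmo7 and Kdr had 3264, 3764, 3484 and 2698 CPM. Its cells were shallower, with a median of 2956 UMIs, against 13642 in the first cluster. It also held more of the class at d36, 156 of 240 cells, against 65 of 450 at d0.

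Low Car4 counts were spread more widely than high ones. Among 4353 cells with no Car4 UMI, 1.40% were aerocyte-like, and among 1316 cells with 4 to 7 UMIs the share was 7.52%. It reached 87.6% of 726 cells with 24 to 99 UMIs and 99.7% of 323 cells with 100 UMIs or more. The share of cells with 4 or more UMIs of Ednrb, the endothelin receptor that marks aerocytes, was 94.4% in the bin of 100 or more Car4 UMIs, 71.9% at 24 to 99, 4.26% at 4 to 7 and 1.42% in cells with no Car4. For Gpihbp1, which carries lipoprotein lipase to the capillary lumen, the share was 25.4% in the highest bin and 70.9% in cells with no Car4. Ednrb was thus common at high Car4 counts and rare at low ones, and part of the cells with 24 to 99 Car4 UMIs did not reach its limit. Median depth also rose, from 5217 UMIs in cells with no Car4 to 11581 at 24 to 99 and 18192 at 100 or more. The part of depth in these shares was not tested. In CPM, Ednrb stood at 952 in the highest bin and 18.5 with no Car4, and Gpihbp1 at 146 and 1863.

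**Figure D1:**
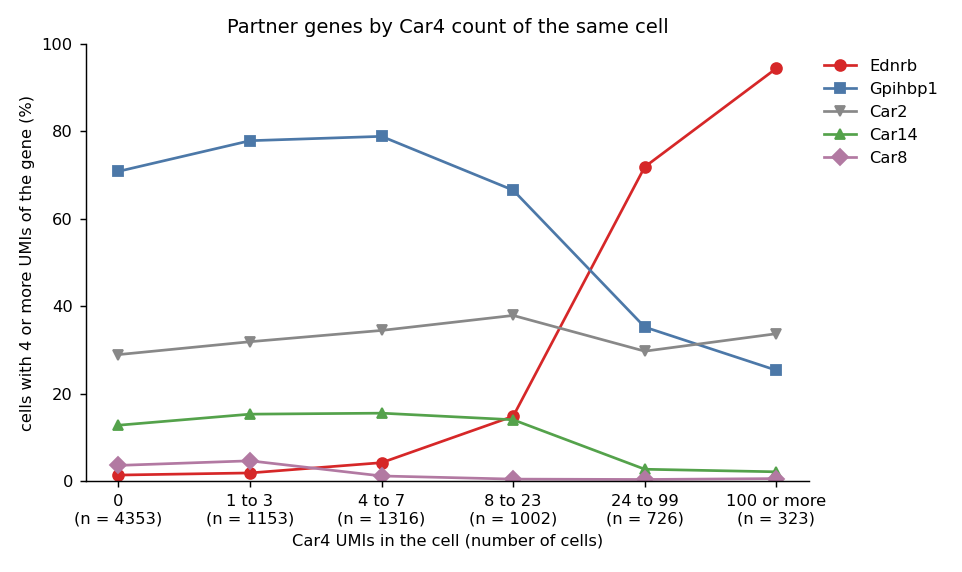
Share of cells with 4 or more UMIs of Ednrb, Gpihbp1, Car2, Car14 or Car8 (y axis, percent) in cells binned by their Car4 UMIs (x axis, with the number of cells in each bin), all days together. Ednrb climbs to 94.4% in the bin of 100 or more Car4 UMIs, while Car14 drops to 2.17% there. Bins differ in depth, with a median of 5217 UMIs per cell in the lowest and 18192 in the highest.

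General capillary-like cells had Car4 in another proportion to the aerocyte marker. They held 31.8 Car4 UMIs for each Ednrb UMI, and 25.1 to 34.5 at single days. Aerocyte-like cells held 6.6, venous-like cells 5.05 and arterial-like cells 5.98. The venous-like and arterial-like ratios rest on 41 and 83 Ednrb UMIs, with single days between 2.67 and 12 in venous-like and 2.21 and 16 in arterial-like cells. In venous-like cells 24.1% of cells had 1 to 3 Car4 UMIs, and the part of free RNA in these counts was not tested.

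Car14 was found in general capillary-like and venous-like cells and was nearly missing from aerocyte-like cells. Its level in general capillary-like cells was 160, 147, 141 and 140 CPM at d0, d15, d22 and d36. In venous-like cells it was 214, 91.7, 243 and 361 CPM, the last in 38 cells, and in aerocyte-like cells 11.7, 7.59, 4.86 and 7.63 CPM. Over all days it stood at 148 CPM in general capillary-like cells (140 to 156) and 221 CPM in venous-like cells (190 to 255), against 7.89 CPM in aerocyte-like and 20.8 CPM in arterial-like cells. Against all other endothelial cells, the ratio was 3.29 (2.89 to 3.74) for general capillary-like cells and 2.19 (1.87 to 2.55) for venous-like cells. The first lay above 1 at 4 of 4 days and the second at 3 of 4, with 0.829 at d15. By the size rule 8.99% of genes measured were higher in general capillary-like cells and 8.4% in venous-like cells. Against all other endothelial cells Car14 was lower in aerocyte-like cells, with a ratio of 0.0570, where 15.7% of genes were lower. Car14 thus did not separate general capillary-like from venous-like cells.

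Positive cells gave the same picture by number. At 4 UMIs or more, 924 of 1108 Car14-positive cells were general capillary-like, 83.4% where that class is 67.0% of all cells. Another 108 were venous-like, 9.75% where that class is 4.07%. Of aerocyte-like cells 1.49% were positive at 4 UMIs or more, against 15.6% of general capillary-like and 29.9% of venous-like cells. Within the general capillary-like class, 9 clusters had between 116 and 170 CPM, including those led by MHC class II genes, by interferon-induced genes and by Atf3. Car14 and the gene Aph1a, a subunit of γ-secretase on the opposite strand, overlap over 521 bases at the 3′ end of Car14 (Aph1a, chromosome 3, 95893969 to 95898288). Reads of one could be taken for the other if counting did not use strand. Aph1a had 161 CPM in aerocyte-like cells, where Car14 had 7.89, and 242, 195 and 135 CPM in general capillary-like, venous-like and arterial-like cells.

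Car8 was a venous gene in this endothelium. Its level in venous-like cells was 464, 659 and 510 CPM at d0, d15 and d22, and 243 CPM in the 38 cells of d36. In general capillary-like cells it was 5.43, 2.82, 3.20 and 1.79 CPM. Over all days Car8 stood at 491 CPM in venous-like cells (445 to 541), against 6.96 CPM in all other endothelial cells, a ratio of 70.6 (56.6 to 87.8) that lay above 1 at 4 of 4 days. It ranked 7 among 3716 genes measured in that comparison. Venous-like cells held 79.5% of its UMIs. At 1 UMI or more, 53.7% of venous-like cells were positive, against 1.28% of aerocyte-like and 0.892% of general capillary-like cells, so the venous share lay far above the level found in classes that carry little of it. The arterial-like class had 37.2 CPM (26.3 to 52.5). Proliferating cells had 72.2 CPM, against 31.8 CPM in all other endothelial cells, a ratio of 2.27 (1.16 to 4.0) that met the size rule, as 18% of genes did in those 51 cells. The 48 UMIs behind it lay in 5 cells, 4 at d0 and 1 at d36, and the 19 proliferating cells of d22 held none.

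Car2 was the least class-bound of the members. It stood at 379 CPM (367 to 392) in general capillary-like and 442 CPM (400 to 487) in arterial-like cells, against 149 CPM (137 to 162) in aerocyte-like and 112 CPM (91.0 to 138) in venous-like cells. Proliferating cells had 483 CPM and lymphatic-like cells 79.9 CPM, and the unnamed cluster led by Fabp4 had 14.4 CPM. For general capillary-like cells the ratio to all other endothelial cells was 1.87 (1.75 to 1.99) and lay above 1 at 4 of 4 days. For aerocyte-like cells it was 0.414 (0.379 to 0.452) and lay below 1 at 4 of 4 days, where 15.7% of genes measured were lower.

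The arterial-like value of Car2 joined 2 kinds of cell. At a finer clustering (resolution 2.0), 236 of the 507 arterial-like cells stayed arterial-like. These had 3300 CPM of Mgp, a matrix protein of artery walls, 210 CPM of the arterial kinase Bmx and 123 CPM of Esm1. The other 271 cells had 16.5, 77.2 and 902 CPM of those genes, Esm1 being a proteoglycan known from tip cells. Car2 was at 148 CPM (115 to 188) in the Mgp-rich cells and 728 CPM (654 to 810) in the Esm1-rich cells. Car8 went the other way, at 72.6 CPM (49.6 to 101) and 2.66 CPM (0.0539 to 11.9). Car4 was at 153 and 115 CPM, with overlapping intervals. By the size rule 6.71% of genes measured were higher in arterial-like cells and 9.95% lower. With the finer clustering, or with stricter cell filters, the ratio of Car2 in arterial-like cells to other cells fell below 1, to 0.473 and 0.552, where it had been 1.47. Arterial-like is thus a name that covers cells of unlike Car2 level.

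**Figure D2:**
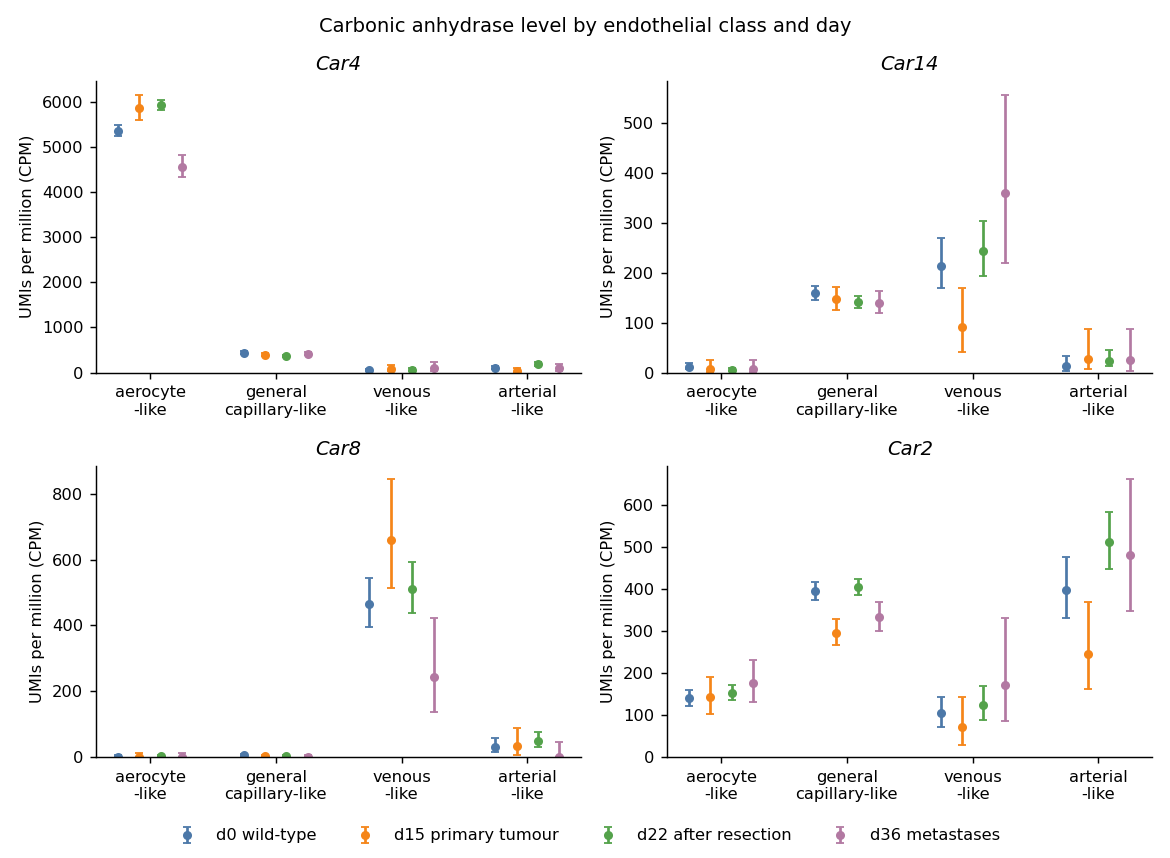
Level of Car4, Car14, Car8 and Car2 (y axes, CPM, linear and different in each panel) in 4 endothelial classes at each day, with 95% intervals from counts divided by 4 (counting error only). Car4 lies between 4566 and 5930 in aerocyte-like cells, Car8 is high in venous-like cells, and Car14 is high in both general capillary-like and venous-like cells. Venous-like points at d36 rest on 38 cells.

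Cells were also taken by their carbonic anhydrase counts instead of by cluster. The 14 aerocyte markers summed to 16836 CPM in cells with Car4, against 5145 CPM in cells without, a ratio of 3.27 that ranged between 2.52 and 3.47 over the days. With 4 or more UMIs as the limit, 14 of 14 of those markers were higher in Car4-positive cells than in cells with none, and 0 of 14 general capillary markers were. The 14 venous markers summed to 6869 CPM in cells with Car8, against 719 CPM in cells without, a ratio of 9.55 (8.73 to 10.9 over the days). Of these, 13 of 14 were higher with Car8, among them Slc6a2, the noradrenaline transporter, at 690 CPM in Car8-positive cells, against 23.6 CPM in cells with none. Selp, the adhesion receptor P-selectin, was at 121 CPM, against 3.89 CPM, and 0 of 14 aerocyte markers were higher. The arterial list did not go one way, with 7 of 14 markers higher and the rest lower. Among the higher were Fbln5, a protein of elastic fibres, at 500.3 CPM, against 42.2 CPM, and Mgp at 652 CPM, against 104 CPM. Among the lower were Hey1 at 59.0 CPM, against 199 CPM, and Dll4 at 56.6 CPM, against 167 CPM.

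Cells with Car14 carried general capillary and venous markers in excess of cells without it. General capillary markers summed to 10124 CPM in Car14-positive cells, against 8127 CPM in Car14-negative cells, a ratio of 1.25 (1.09 to 1.30 over the days). Venous markers summed to 1556 CPM, against 913 CPM, a ratio of 1.71 (1.42 to 2.1). Of the general capillary list 13 of 14 markers were higher with Car14 at 4 UMIs or more, led by Aplnr, the apelin receptor, at 1.83 times. Of the venous list 10 of 14 were higher, led by Prss23, a secreted protease, at 2.46 times. Ackr1, the chemokine receptor of larger venules, was lower, at 1.39 CPM in Car14-positive cells, against 10.6 CPM in cells with none. Selp was at 5.12 and 9.52 CPM in these cells. Car8-positive cells had 67.1 CPM of Ackr1, against 7.18 CPM in cells with none. For Car2 the marker sums stayed closer to 1, with 1.14 for general capillary, 0.955 for arterial, 0.909 for aerocyte and 0.580 for venous markers.

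Whether Car4, Car14 and Car8 lay in different single cells was read from cells that held more than one of them. At 4 UMIs or more, 2976 cells had Car4 alone, 676 Car14 alone and 153 Car8 alone. Cells with 2 of the 3 numbered 365 for Car4 and Car14, 59 for Car8 and Car14 and 18 for Car4 and Car8. All 3 were found in 8 cells and none in 4618.

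Car4 and Car8 were seldom in the same cell. They met in 26 cells, where independent detection would give 95, a ratio of 0.274 (0.179 to 0.401). The ratio was 0.20, 0.198 and 0.419 at d0, d15 and d22, and 0 of 14 Car8-positive cells held Car4 at d36. At 1 UMI or more it was 0.694 (0.572 to 0.835). Within venous-like cells it was 1.13 (0.563 to 2.02), an interval that holds 1.

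Car4 and Car14 shared many cells. They met in 373 cells, where independent detection would give 438, a ratio of 0.852 (0.768 to 0.943), and 333 of those cells were general capillary-like. At 1 UMI or more the ratio was 0.952 (0.883 to 1.02). At 4 UMIs or more within general capillary-like cells it was 1.13 (1.01 to 1.25), above 1. Over all classes, cells with both had a median of 8655 UMIs, against 7771 with Car4 alone and 7056 with Car14 alone. The part of depth in shared cells was not tested. By Car4 count, Car14 was low in cells with many Car4 UMIs and not in cells with few. It stood at 7.39 CPM in cells with 100 or more Car4 UMIs and 15 CPM with 24 to 99, against 136 CPM in cells with none. In cells with 1 to 3 and 4 to 7 Car4 UMIs it was at 143 and 140 CPM.

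Car8 and Car14 met more often than independent detection would give at 4 UMIs or more. At 4 UMIs or more they shared 67 cells, where 31.9 would be given, a ratio of 2.1 (1.63 to 2.66), and 59 of those cells were venous-like. Within venous-like cells the ratio was 1.15 (0.874 to 1.48). Cells with both had a median of 11021 UMIs, against 9484 in cells with Car8 alone and 7572 in cells with Car14 alone, and the part of doublets in shared cells was not tested. With cells thinned to 2000 UMIs and positive at 1 UMI, the ratio for Car8 and Car14 was 1.24 (0.847 to 1.75), an interval that holds 1. Both depth and positive limit differ between this value and 2.1, and the part of each was not tested. The thinned ratios for Car4 with Car8 and with Car14 were 0.320 (0.213 to 0.463) and 0.770 (0.687 to 0.860), both below 1. Without the 5% of cells with the most UMIs of each day, the ratios at 4 UMIs or more were 1.99 for Car8 and Car14, 0.256 for Car4 and Car8 and 0.876 for Car4 and Car14. With Car2, the ratios were 1.05 for Car4, 1.14 for Car14 and 0.564 for Car8.

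**Figure D3:**
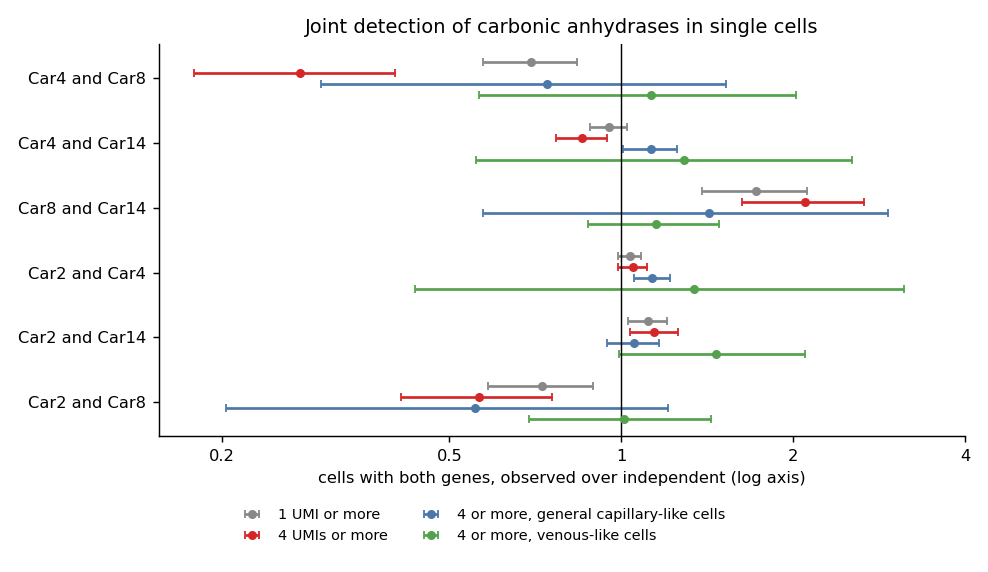
Number of cells with both genes over the number that independent detection would give (x axis, log scale) for 6 pairs of members, in all endothelial cells at 1 or 4 UMIs or more and within 2 classes at 4 or more, with 95% Poisson intervals on the number of shared cells. Car4 and Car8 lie at 0.274 and Car8 and Car14 at 2.1 at 4 UMIs or more.

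Over all endothelial cells of a day, Car4 was the member that differed most between days among those measured. Its level was 1696, 1325, 1816 and 1164 CPM at d0, d15, d22 and d36, high at the deeper days d0 and d22. The ratio to d0 was 0.781 (0.746 to 0.818) at d15, 1.07 (1.04 to 1.1) at d22 and 0.686 (0.653 to 0.721) at d36, and none of these met the size rule. By that rule 4.09% of genes measured were higher and 2.29% lower at d15 over d0. The shares were 0.253% higher and 1.71% lower at d22 over d0, and 4.33% higher and 3.29% lower at d36 over d0. Car4 at d36 met it when set against d22, with a ratio of 0.641 (0.611 to 0.672), where 2.45% of genes were lower and 5.86% higher. At d22 over d15 it was 1.37 (1.31 to 1.44) and did not meet the rule, which 1.84% of genes met as higher and 5.73% as lower. The value at d36 over d22 was the one call among the members in 5 comparisons between days. The call did not hold at a common UMI minimum (0.681) or with cells thinned to 2000 UMIs (0.793). Nor did it hold with classes weighted to their shares of the d0 UMIs (0.816).

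The share of aerocyte-like cells is a share of cells, while CPM weighs each cell by its UMIs. It was 17.1%, 12%, 17% and 15.2% of endothelial cells at d0, d15, d22 and d36. The median aerocyte-like cell held 13012, 5231, 13522 and 3076 UMIs at those days, against 7643, 4142, 7667 and 3408 over all endothelial cells. Shares of cells and of UMIs therefore differ, and the order of the cell shares does not show the part of class make-up in Car4. Inside the aerocyte-like class the ratio of Car4 to d0 was 1.09 (1.04 to 1.15) at d15, 1.11 (1.07 to 1.14) at d22 and 0.851 (0.803 to 0.902) at d36. Inside the general capillary-like class it was 0.892 (0.801 to 0.992), 0.838 (0.779 to 0.901) and 0.948 (0.852 to 1.05). With the classes weighted to their shares of the d0 UMIs, not of the cells, the ratio over all endothelial cells was 1.07 at d15 and 0.872 at d36.

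Car14 differed little between days. It was at 112, 110, 101 and 113 CPM at d0, d15, d22 and d36, with ratios to d0 of 0.980 (0.829 to 1.16), 0.901 (0.808 to 1.01) and 1.01 (0.850 to 1.18), all intervals holding 1. In venous-like cells it was lower by the size rule at d15. The 59 cells of d15 had 91.7 CPM and the 136 cells of d0 had 214 CPM, a ratio of 0.428 (0.182 to 0.829), where 4.11% of genes measured were lower. At d22 it was higher than at d15 in this class, with a ratio of 2.65 (1.38 to 6.21), where 4.48% were higher. The d15 value was thus low on both sides, in the smallest venous-like group that was compared.

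Car8 was low at d36. Its level over all endothelial cells was 37.1, 43.9, 30.7 and 10.3 CPM at d0, d15, d22 and d36, below the 50 CPM needed to count as measured at each day. The ratio to d0 was 1.18 (0.892 to 1.54) at d15, 0.826 (0.681 to 1.01) at d22 and 0.278 (0.156 to 0.449) at d36. Positive cells numbered 129, 45, 115 and 15. Venous-like cells were 5.18%, 3.99%, 4.01% and 2.41% of endothelial cells at these days. Weighting classes to their shares of the d0 UMIs gave a ratio of 0.501 at d36, a value that includes the 38 venous-like cells of d36. Within venous-like cells the ratio to d0 was 1.42 (1.06 to 1.91) at d15 and 1.1 (0.879 to 1.37) at d22, neither past the size rule, which 4.71% and 2.57% of genes met as higher. No ratio within the venous-like class was formed for its 38 cells at d36.

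Car2 was at 306, 249, 329 and 299 CPM at d0, d15, d22 and d36. Car2 is also an enzyme of red blood cells, whose list of 6 genes summed to 13.2, 30.5, 11.6 and 16 CPM at these days with 1 or 2 genes at 0, and its part in Car2 was not tested. Its ratio to d0 was 0.813 (0.730 to 0.905) at d15, 1.08 (1.01 to 1.15) at d22 and 0.978 (0.885 to 1.08) at d36. In general capillary-like cells the level was 296 CPM at d15 and 394 CPM at d0, with a ratio of 0.750 (0.664 to 0.846). In arterial-like cells Car2 was lower by the size rule at d15. It had 244 CPM at d15 and 398 CPM at d0, with a ratio of 0.614 (0.390 to 0.969), where 4.16% of genes measured were lower. At d22 it was higher there than at d15, with a ratio of 2.09 (1.35 to 3.24), where 3.48% were higher. Of the arterial-like cells, 30 of 80 belonged to the Esm1-rich group at d15 and 124 of 203 at d22, against 83 of 159 at d0. That group is the one high in Car2, and its part in these ratios was not tested. At resolution 2.0 the ratio of Car2 in arterial-like cells at d15 was 1.36, above 1. Car4 in arterial-like cells was higher by the size rule at d22. It had 184 CPM at d22 and 104 CPM at d0, with a ratio of 1.78 (1.16 to 2.76), where 1.94% were higher. It was higher than at d15 as well, with a ratio of 4.61 (1.73 to 17.3). The ratio to d0 was 0.765 when all genes, carbonic anhydrases included, were clustered.

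The share of positive cells depended on depth. As deposited, Car4-positive cells were 59.0%, 38.8%, 54.8% and 41.2% at d0, d15, d22 and d36, and Car2-positive cells 44.2%, 23.9%, 46.8% and 23.4%. Car14 gave 19.7%, 11.2%, 17.5% and 11.5%, and Car8 4.91%, 3.04%, 3.61% and 0.950%. In all 4 genes d15 and d36, the shallow days, lay below d0. With cells thinned to 2000 UMIs, without the 302 cells of d15 and 388 of d36 that were shallower, the shares were 44.2%, 35.9%, 41.5% and 38.6% for Car4 and 13.5%, 10.2%, 12.1% and 10.7% for Car14. Car2 then gave 31.3%, 22.4%, 32.8% and 22.3%, and Car8 3.31%, 3.31%, 2.26% and 1.09%. Thinned cells still differed in the number of genes found, with medians of 915, 792, 905 and 746.

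Dividing values by 4 before drawing 500 from each cell brought the gene numbers together, at medians of 391, 391, 388 and 386. This step was chosen after seeing the data and dropped 296 shallower cells of d15 and 387 of d36. Car14-positive cells were then 5.45%, 5.49%, 5.42% and 5.70%, as flat as its CPM. Car4-positive cells were 28.1% (26.4 to 29.8), 23.1% (20.7 to 25.6), 26.0% (24.4 to 27.5) and 25% (22.6 to 27.6). Car2 gave 14.7% (13.4 to 16.1), 12.3% (10.4 to 14.3), 16.4% (15.1 to 17.7) and 12.1% (10.3 to 14.1). Car8 gave 1.49% (1.06 to 2.02), 1.44% (0.839 to 2.29), 0.784% (0.508 to 1.16) and 0.419% (0.136 to 0.976), the last from 5 of 1192 cells. For Car2, Car4 and Car14 at d15 and d36 the shares lay closer to d0 than the deposited ones did. For Car8 at d22 the share lay further from d0 as a ratio, though not in percentage points. The interval of the low Car8 share at d36 did not overlap that at d0.

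**Figure D4:**
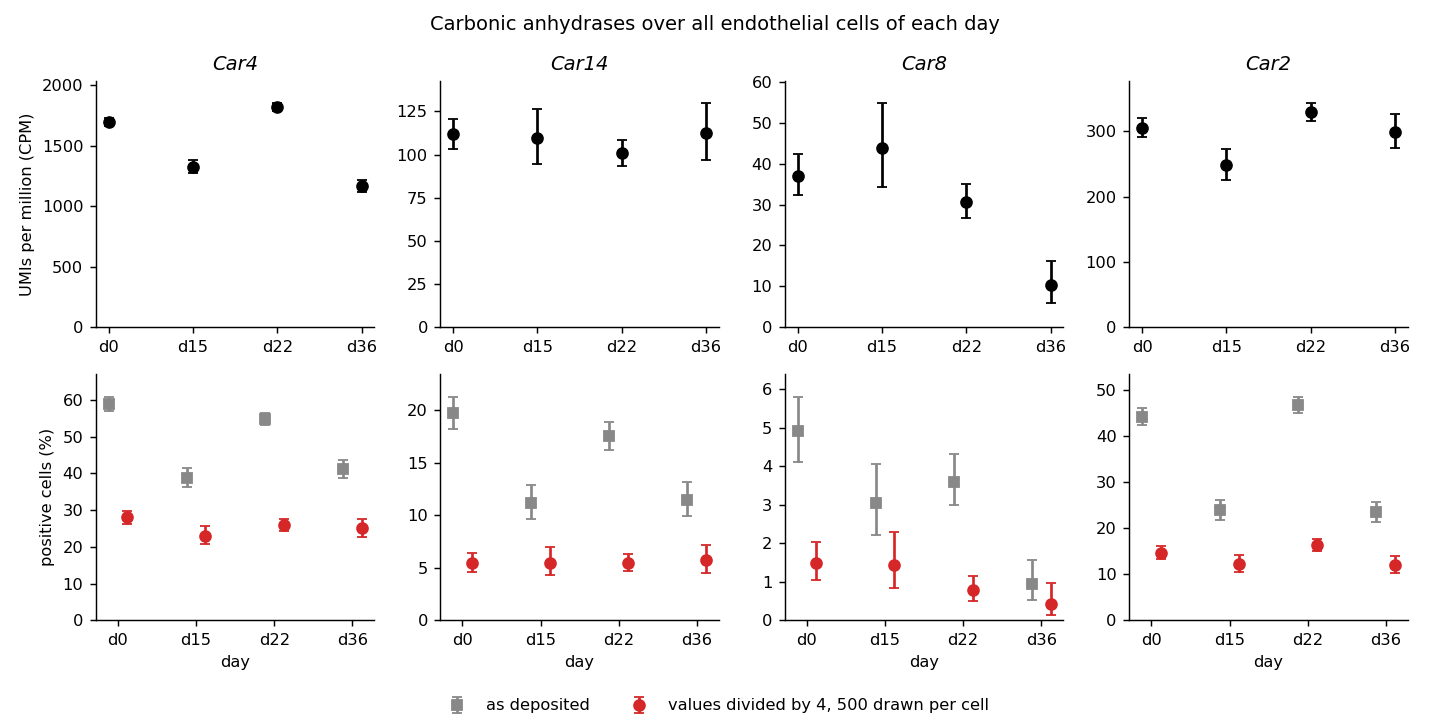
Level of each member over all endothelial cells of a day (top row, CPM) and share of positive cells (bottom row, percent) as deposited (grey squares) and after dividing values by 4 and drawing 500 per cell (red circles), with 95% intervals for counting error. The grey shares of Car14 lie between 11.2% and 19.7%, and the red ones between 5.42% and 5.70%.

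The genes whose level over 19 clusters of 20 or more cells was most like that of each member are a description, since clusters share libraries and differ in depth. For Car4 they were Sept4 (Pearson r of log2(CPM + 1), 0.946), Pmp22, Slc48a1, Tex14, Nhlrc2 and Scrn1, out of 9734 genes. For Car14 they were Nkd2 (0.931), H2-Ab1, Kcnh1, Tmem44, Tle1 and Gpr182. For Car8 they were Tmem45a (0.860), Ctsh, Spint2, Selp, Palld and Lpcat2, and for Car2 Atp2a3 (0.918), Adgra3, Stk4, Mrpl50, Hfe and Zfp771. Between members, r was -0.69 for Car4 and Car8, -0.60 for Car4 and Car14, 0.27 for Car8 and Car14, 0.50 for Car2 and Car14, -0.14 for Car2 and Car8 and -0.004 for Car2 and Car4.

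Partner genes were also read in single cells, by their level in positive over negative cells at the day where that ratio was lowest. Fibin and Ednrb led for Car4, at 8.52 and 8.15 times or more at each of 4 days, followed by Igfbp7, Emp2 and AW112010. Tmem45a (29.9), Slc6a2 (21.5), Cpe (20.2), Bst1 (17.9) and Cytl1 (15.4) led for Car8 over 3 days. For Car14 the ratios were smaller, with Prss23 at 1.76, Pcp4l1 at 1.63, Cd81 at 1.63, and Adam15 and Ackr3 at 1.5. For Car2, Hey1, a Notch target, led at 1.40, followed by Hilpda, Hibadh, Snrpb and Plvap at 1.20 to 1.25.

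Other carbonic anhydrases were scarce. None of the 12 other genes of the family in the table was measured by the rule. Car5b, an enzyme of mitochondria, had the most, with 260 UMIs in 81 cells, and stood at 18.6 CPM (11 to 31.1) in venous-like cells, against 3.18 CPM (2.19 to 4.58) in general capillary-like and 2.78 CPM in aerocyte-like cells. Car7, Car5a, Car11, Car3, Car13 and Car15 had 121, 62, 31, 21, 12 and 12 UMIs. Car9, an enzyme known to be induced in hypoxic tumours, had 1 UMI, and Car1, an enzyme of red blood cells, and Car10 had 0. Of a list of 25 genes of acid and bicarbonate transport, water channels and hypoxia sensing, 4 were measured and none met the size rule at any day against d0. Their median log2 ratio to d0 was 0.08, -0.05 and 0.04 at d15, d22 and d36, beside 0.01, 0.01 and -0.03 for all genes measured.

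Those 4 genes differed between classes less than Car4 and Car8 did. Aqp1, a water channel, stood at 3620 CPM in venous-like cells, against 2177 CPM in general capillary-like and 2018 CPM in aerocyte-like cells. Slc9a3r2, a scaffold of membrane transporters, stood at 2036 CPM in aerocyte-like cells, against 1304 CPM in general capillary-like cells. Epas1, a hypoxia-inducible factor, stood at 445 CPM in aerocyte-like cells, against 954 CPM in general capillary-like cells. Bsg, the partner protein of lactate transporters, stood at 1209 CPM in arterial-like cells, against 566 CPM in general capillary-like cells.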

How the data were processed

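The deposited table holds counts, UMIs per gene and cell, which the authors wrote without scaling. Per the submitters' processing notes, Cell Ranger 2.1.1 and the build mm10 were used. Of 9036 cells, 9017 had 300 or more genes and no more than 10% mitochondrial UMIs and were kept, and 25 doublet calls (0.277%) were left out, a share too low for the caller to be taken to have worked. With scanpy 1.11.5 and leidenalg 0.10.2, 2000 variable genes without carbonic anhydrases, 30 components and 15 neighbours gave 21 clusters at resolution 1. Clusters led by genes of other cell types (114 cells) and 5 cells with other markers were left out, by a rule set after the clusters were seen, which left 8873 endothelial cells. UMIs were summed per day or class and divided by the total. Level intervals are exact Poisson, ratio intervals exact binomial and share intervals Clopper-Pearson, at 95% and on counts divided by 4 for levels and ratios, a choice made after seeing that values peak at 4. No p-value was computed, since each day is 1 pooled sample. Joint detection was set beside the product of both genes' shares. The size rule and intervals were tried on simulated day sums with known changes, drawn as Poisson counts times 4. That is the setting the intervals assume, without spread between cells or libraries, so it cannot show how they hold in these data.

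The members and lists were chosen with earlier results of these data known. Text names the 4 members, other carbonic anhydrases with 10 or more UMIs, the 4 acid-base genes of highest CPM, 6 genes most alike over clusters and 5 leading partners per member. Car9, Car1, Car10, Aph1a, the arterial genes Mgp, Bmx and Esm1 and single markers were named after their values were seen. Alternatives were other scalings (edgeR 4.0.16 TMM, DESeq2 1.42.0 size factors), thinning, filters, clusterings and positive limits. Positions are from GENCODE for GRCm38, the mm10 assembly. Protein sequences were not analysed here.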

Additional observations from a re-analysis of the deposited data

Results flagged for a closer look

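Car4 moved in opposite directions between classes at d15 and d22, and these differences were not tested, since each day is 1 pooled sample. At d15 its ratio to d0 was 1.09 in aerocyte-like cells and 0.892 in general capillary-like cells. At d22 the ratio was 1.11 in aerocyte-like, 0.838 in general capillary-like and 1.78 in arterial-like cells. The arterial-like class joins Mgp-rich and Esm1-rich cells, and its Car4 ratio at d22 did not keep its direction under another clustering.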

How the results depend on the processing

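No paired analysis was possible because the cell names carry the day and not the library, and for the same reason no library could be left out. Precision is limited by counting, by 38 venous-like cells at d36 and by the unequal depth of days. TMM and DESeq2 scaling moved the median gene by less than 0.1 on the log2 scale in each comparison. Of the day levels of members under each setting, 141 kept call and size, 14 moved in size, 2 gained the call and 3 lost it. Car4 over d0 was 0.824, 0.987 and 0.782 at d15, d22 and d36 with cells thinned to 2000 UMIs. It was 0.842 at d15 and 0.729 at d36 at a common minimum of 2576 UMIs, which left out 469 and 598 cells of those days. With class weights it was 1.07 at d15 and 0.872 at d36. Car4 at d22 over d15 was 1.44 with TMM, 1.20 thinned, 1.27 at the common minimum and 0.998 with class weights. At d36 over d22 it was 0.793, 0.681 and 0.816 thinned, at the minimum and weighted, past the rule in none. Car8 thinned was 0.622 at d22 over d0 and 0.478 at d22 over d15, and weighted 0.501 at d36 over d0. Without minimum counts it met the rule at d36 over d0 (0.278) and over d22 (0.336). That setting gave 700 genes higher and 443 lower in place of 152 and 85 at d15 over d0. They were 117 and 408 in place of 9 and 61 at d22 over d0, and 587 and 528 in place of 158 and 120 at d36 over d0. They were 345 and 895 in place of 68 and 212 at d22 over d15, and 739 and 401 in place of 213 and 89 at d36 over d22.

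Ratios of shares to d0 moved with depth. Unthinned, they were 0.539 and 0.530 for Car2 at d15 and d36, 0.658 and 0.698 for Car4, 0.567 and 0.582 for Car14, and 0.619 for Car8 at d15. With values divided by 4 they were 0.834 and 0.822 for Car2, and for Car14 they turned to 1.01 and 1.05. Thinned to 2000 UMIs and at 2 UMIs or more, Car2 gave 0.937, 1.14 and 0.879 at d15, d22 and d36, and Car14 turned to 1.1 at d36. Thinned to 1200 UMIs, Car4 gave 0.726 at d15.

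For classes, Car2 in arterial-like over other cells was 0.473 at resolution 2.0 and 0.552 with strict filters, turning round, and 1.57 and 1.53 with all genes clustered and with doublet calls kept. In general capillary-like cells it was 1.42 with strict filters. Car2 in arterial-like cells at d15 over d0 was 1.36 at resolution 2.0, and 0.695, 0.681 and 0.732 with all genes clustered, at resolution 0.5 and with doublet calls kept. It was 0.858 at d22 with strict filters. Car4 there was 0.315 at d15 and turned to 0.765 at d22 with all genes clustered. Car4 in aerocyte-like cells was 0.937 at d36 with strict filters, and Car8 in venous-like cells 1.52 at d15 with doublet calls kept. Resolution 2.0 divides the arterial-like cells into Mgp-rich and Esm1-rich ones, and the cause of the moves listed here was not tested.

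Joint detection of Car4 and Car8 was 0.365 at 2 UMIs, 0.274 at 4 UMIs, 0.320 thinned and 1.06 within venous-like cells. For Car4 and Car14 it was 0.876, 0.852 and 0.770, and 1.09 within general capillary-like cells. Car8 and Car14 gave 1.24 thinned and 1.03 within venous-like cells. Car2 and Car8 gave 0.564 at 2 and at 4 UMIs and 0.416 thinned, and Car2 and Car4 0.911 thinned. Marker ratios were 3.65 and 3.85 for aerocyte markers with Car4 at 2 and 4 UMIs, 1.31 for venous markers with Car14 thinned and 1.22 for general capillary markers with Car2 thinned.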
